A study of Mus musculus with 12 samples.

Results

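The 10 genes described here, Hspa1a, Hspa1b, Hspa8, Hsph1, Hsp90aa1, Hsp90ab1, Dnajb1, Dnaja1, Hspe1 and Hspd1, encode abundant heat shock chaperones and were taken by symbol from the 54532 genes of the raw count table. All 10 passed the filter on low counts. They were measured in tumour-associated macrophages (TAMs), sorted from gliomas of 6 mice whose genotype is labelled Ntv-a_Ink4a/Arf_KO. As background, Ntv-a mice carry the avian virus receptor TVA under the nestin promoter, and Ink4a/Arf knockout removes the tumour suppressors of the Cdkn2a locus. How the tumours were started and the age of the mice are not given in the sources used here. Every mouse received rhodamine-labelled perfluoro-crown-ether nanoparticles by vein 24 hours before its tumour was taken, so the cells without rhodamine also came from injected animals. CD45+ CD11b+ Ly6C- cells of each tumour were split into a rhodamine-negative and a rhodamine-positive sort of more than 2000 cells each, which gives 6 libraries of polyadenylated RNA per sort. Mice 1 to 4 were male and mice 5 and 6 female, and all 12 libraries carry 1 batch label.

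Heat shock proteins hold unfolded proteins and help them fold. HSP70 proteins bind short exposed stretches of a client, J proteins of the HSP40 family deliver clients and trigger ATP hydrolysis by HSP70, HSP110 exchanges the nucleotide, and HSP90 takes over partly folded clients such as kinases and receptors. Some of these genes are switched on by heat shock factor 1 (HSF1) when proteins misfold, whereas others run at a high level in unstressed cells. Hspa1a, Hspa1b, Hsph1, Hsp90aa1 and Dnajb1 were classed here as inducible, and Hspa8, Hsp90ab1, Dnaja1, Hspe1 and Hspd1 as constitutive. These classes are labels that were not measured in these data, and the 2 properties do not exclude each other. The group name "cytosolic" does not hold for Hspe1 and Hspd1, which encode HSP10 and HSP60, the chaperonin of the mitochondrial matrix.

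HSF1 binds heat shock elements, which are inverted repeats of the unit GAA. Windows from 250 bases before to 50 after the annotated start (RefSeq, GRCm38.p6) were at hand for 7 of the 10 genes, not for Hspa8, Hsp90aa1 and Hsp90ab1. Stretches that hold a match are shown because the members differ in this feature, with the match in capitals, but not every match is printed. The 250 bases before the start of Hspa1a (chr17:34972157-34972406, minus strand) and of Hspa1b (chr17:34959239-34959488, minus strand) are printed whole, since these genes are neighbours with nearly the same sequence. The others are 30-base stretches at chr5:149636287-149636316 (Hsph1, minus strand), chr4:40722333-40722362 (Dnaja1, plus strand) and chr1:55088053-55088082 (Hspe1, plus strand). The Hsph1 stretch begins at base 21 after an annotated start, and those of Dnaja1 and Hspe1 lie before one. The Hsph1 and Hspe1 stretches overlap an annotated untranslated region.
Hspa1a: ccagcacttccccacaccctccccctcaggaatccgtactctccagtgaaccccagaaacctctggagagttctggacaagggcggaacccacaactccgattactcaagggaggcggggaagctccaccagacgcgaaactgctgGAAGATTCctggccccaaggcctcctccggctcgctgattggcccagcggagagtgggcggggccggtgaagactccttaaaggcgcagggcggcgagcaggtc
Hspa1b: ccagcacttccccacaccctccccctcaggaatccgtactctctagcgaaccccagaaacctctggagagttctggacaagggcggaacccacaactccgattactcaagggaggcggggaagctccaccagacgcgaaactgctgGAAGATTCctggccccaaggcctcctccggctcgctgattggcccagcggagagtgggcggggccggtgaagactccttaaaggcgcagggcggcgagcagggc
Hsph1: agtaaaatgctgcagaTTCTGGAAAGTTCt
Dnaja1: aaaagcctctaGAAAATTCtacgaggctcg
Hspe1: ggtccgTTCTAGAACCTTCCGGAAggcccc

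The Hspa1a and Hspa1b stretches differed at 3 of 250 bases, written C44T, T47C and T249G with the Hspa1a base first and positions counted from 1 at the 5′ end, and each held the same single 2-unit match. A 2-unit match was GAANNTTC or TTCNNGAA, and a 3-unit match GAANNTTCNNGAA or TTCNNGAANNTTC. Each form was searched on both strands, matches may overlap, and every 3-unit match also contains 2-unit matches. The 7 genes had 12 windows, since some have several annotated starts. A 3-unit match was in 4 of the 12 windows, those of Hsph1 and Hspe1 and 1 of Hspd1, against 0.603% of all 32851 windows of the table. Hspd1 and Hspe1 lie head to head and their windows share those bases. A 2-unit match was in 7 of the 12 windows, which belong to 6 members, against 15.1% of all windows, and Dnajb1 had neither. Some of these windows overlap, so they are not independent. The exact 3-unit matches did not follow the classes. Hspe1 and Hspd1, classed constitutive, held them, and Hspa1a, Hspa1b and Dnajb1, classed inducible, did not. A match in this window is a description of the letters and not a measured binding site. Only exact units were searched, so a repeat with a changed base in a unit was not counted. A missing match therefore does not show that a heat shock element is absent.

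The libraries held 13073189 to 17379314 counts, and levels are given as CPM, the count of a gene relative to its library total, with TMM scaling of the totals (trimmed mean of M values). Fold changes are log2, rhodamine-positive minus rhodamine-negative, from edgeR's quasi-likelihood test with the mouse as a block and Benjamini-Hochberg adjustment over all 15014 genes tested, with a threshold of 0.05. By this test 4 of the 10 members fell in the rhodamine-positive sorts, where 13.2% of all genes fell. Another 3 rose, where 13.0% of all genes rose, and 3 did not pass, where 26.2% of all genes passed in either direction. The members were chosen with earlier results of these data known, so the shares are a description and not a test. Of 5 inducible genes 3 fell and 0 rose (median log2 fold change -0.32), and of 5 constitutive genes 1 fell and 3 rose (median 0.27). The mitochondrial pair supplied 2 of those 3 rises (median 0.35), and of the 3 cytosolic constitutive genes 1 fell and 1 rose (median 0.08). With Hspa1a and Hspa1b, which share most of their sequence, summed to 1 feature, 3 of 9 members fell and 3 rose. The median over all genes tested was -0.02. With library size alone in place of TMM the median of all genes moved to -0.18, and the split became 4 lower and 0 higher members, against 3142 lower and 852 higher over all genes. A change of scaling shifts the log2 fold changes of all genes by nearly the same amount. Relative to the median of all genes, any gene therefore stays where it was, for example Hspa1b at -1.30 and Hspd1 at 0.38. This does not show which scaling is right. Without the mouse block 3 members fell and 1 rose, and in male mice alone 4 fell and 0 rose. Without mouse 1 the count was 2 lower and 2 higher, without mouse 3 it was 2 lower and 1 higher, and without mouse 6 it was 4 lower and 1 higher. In bulk samples, fewer cells of a type that expresses a gene and less RNA per cell cannot be told apart.

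**Figure D1:**
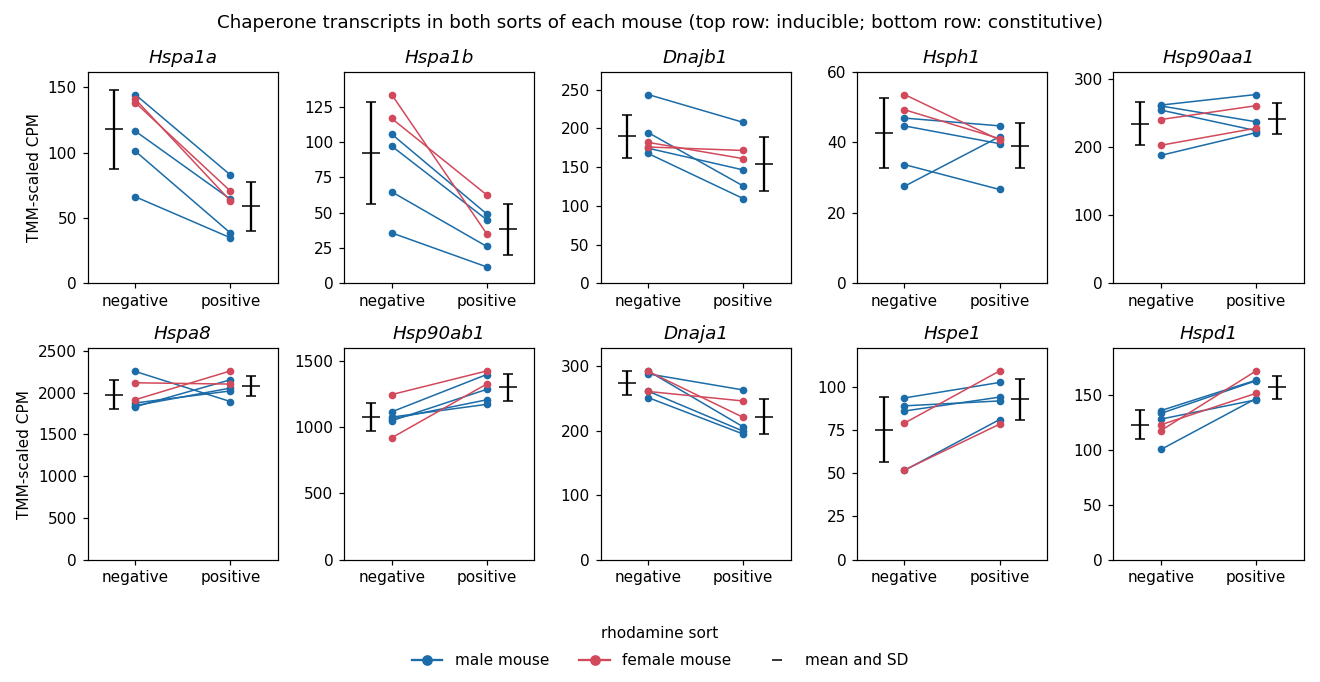
TMM-scaled CPM of the 10 chaperone genes in the rhodamine-negative and rhodamine-positive sort of each mouse, with lines joining the sorts of 1 mouse and bars giving mean and SD (n = 6). Every line falls for Hspa1a, Hspa1b, Dnajb1 and Dnaja1, and every line rises for Hsp90ab1, Hspe1 and Hspd1.

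Per length of the transcript, the constitutive genes Hspa8 and Hsp90ab1 led the order. In the rhodamine-negative sorts the level per kilobase of the longest principal transcript was 825 ± 72.1 CPM per kb (SD, n = 6) for Hspa8 and 427 ± 41.8 CPM per kb for Hsp90ab1, with no overlap between them. Hspe1 followed at 97.0 ± 24.2 CPM per kb, then Hsp90aa1 at 71.4 ± 9.64, Dnajb1 at 63.3 ± 9.33, Hspd1 at 50.8 ± 5.34 and Dnaja1 at 48.9 ± 3.30 CPM per kb. Hspa1a, Hspa1b and Hsph1 were last, at 39.8 ± 10.2, 32.9 ± 12.8 and 11.2 ± 2.62 CPM per kb. From Hspe1 downwards, neighbours in the order overlapped between mice, and the places of Dnajb1, Hspd1 and Dnaja1 depended on the transcript length used. The places of Hspa1a and Hspa1b are uncertain because reads that match both genes may have been divided or dropped. The mice differed most in Hspa1b, whose coefficient of variation was 39.0% in the negative and 47.1% in the positive sorts, against 8.75% and 5.97% for Hspa8.

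Hspa1a and Hspa1b, the stress-inducible HSP70 genes, had the largest fold changes of the 10. Hspa1a (ENSMUSG00000091971, mm10 chr17:34969190-34972156, minus strand) ranged from 66.3 over a median of 127 to 145 CPM in the negative sorts and from 34.9 over 63.8 to 83.0 CPM in the positive sorts. Mouse 4 was lowest and mouse 2 highest in both sorts, so the sorts overlapped although the level fell within each mouse. Its log2 fold change was -1.02 ± 0.10 (SE, adjusted p = 3.27e-05), lower in 6 of 6 mice. Of all genes tested, 7.63% had a lower fold change than Hspa1a.

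Hspa1b (ENSMUSG00000090877, chr17:34956436-34959238, minus strand) lies 9951 bases from Hspa1a. It ranged from 35.7 over 101 to 134 CPM in the negative sorts and from 11.6 over 40.0 to 62.6 CPM in the positive sorts, again with mouse 4 lowest in both and with overlap between the sorts. The log2 fold change was -1.32 ± 0.13 (adjusted p = 4.58e-05), lower in 6 of 6 mice, and 5.01% of all genes had a lower one. The coding sequences of Hspa1a and Hspa1b were 99.4% identical, with an identical run of 638 bases, so the division of reads between them is uncertain. How reads that match both were counted is not given in the sources used here, so such reads may have been divided or dropped, and the levels may be too low. Their summed level, which does not depend on the division, was 210.3 ± 64.8 CPM (SD, n = 6) in the negative and 97.4 ± 35.1 CPM in the positive sorts, a log2 fold change of -1.13 ± 0.10 (SE, adjusted p = 1.47e-05) or 2.19-fold lower. Both genes kept their direction and call in each of the 15 other settings, with log2 fold changes from -1.18 to -0.94 for Hspa1a and from -1.48 to -1.19 for Hspa1b.

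Hspa8 encodes HSC70, the HSP70 of unstressed cells, which also drives uncoating of clathrin vesicles. It ranged from 1832 over 1897 to 2255 CPM in the negative sorts and from 1894 over 2079 to 2261 CPM in the positive sorts. It was higher in 4 of 6 mice, and the log2 fold change of 0.08 ± 0.09 did not pass (adjusted p = 0.554). With library size alone the estimate was -0.08 (adjusted p = 0.511).

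Both J protein genes fell. Dnajb1, the HSF1-induced partner of HSP70, ranged from 168 over 179 to 244 CPM in the negative and from 109 over 154 to 208 CPM in the positive sorts, with mouse 3 lowest and mouse 2 highest in both. Its log2 fold change was -0.32 ± 0.10 (adjusted p = 0.0286), lower in 6 of 6 mice. Dnaja1, a J protein with a farnesyl anchor that is present in unstressed cells, ranged from 252 over 275 to 293 CPM and from 195 over 214 to 263.5 CPM. Only mouse 2 in the positive sorts reached above the lowest negative library, and the log2 fold change was -0.31 ± 0.08 (adjusted p = 0.0175), lower in 6 of 6 mice. Dnajb1 did not pass without mouse 1 (adjusted p = 0.0892), without mouse 3 (0.113) or without the block (0.165). Dnaja1 did not pass without mouse 1 (adjusted p = 0.0561) or without mouse 3 (0.0673).

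Hsph1, which encodes the HSP110 exchange factor, ranged from 27.6 over 45.8 to 53.6 CPM in the negative sorts and from 26.7 over 40.9 to 44.7 CPM in the positive sorts. It was lower in 5 of 6 mice, by -0.40 to -0.07 on the log2 scale, and higher in mouse 4 by 0.59. The log2 fold change was -0.11 ± 0.13 and did not pass (adjusted p = 0.556).

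Of the HSP90 genes 1 passed the test. Hsp90aa1, the stress-responsive form, ranged from 188 over 247 to 261 CPM in the negative and from 221 over 232 to 277 CPM in the positive sorts, and its log2 fold change of 0.05 ± 0.08 did not pass (adjusted p = 0.714). Hsp90ab1, the form of unstressed cells, ranged from 918 over 1067 to 1243 CPM and from 1170.1 over 1303 to 1421 CPM. It was higher in 6 of 6 positive sorts, with overlap between the sorts, and its log2 fold change was 0.27 ± 0.08 (adjusted p = 0.0318). The call for Hsp90ab1 was lost without mouse 1 (adjusted p = 0.0727), mouse 3 (0.0747), mouse 4 (0.0541) or mouse 6 (0.0644). It was also lost without the block (0.0700), in male mice alone (0.0976), in the deposited log2 table (0.0567) and with library size alone (0.294). Hsp90aa1 was -0.11 on the log2 scale with library size alone and -0.01 in male mice alone, neither past the threshold.

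The mitochondrial pair rose. Hspd1 (chr1:55077835-55088243, minus strand) encodes HSP60, the barrel in which matrix proteins fold. It ranged from 100.5 over 126 to 136 CPM in the negative sorts and from 146 over 157 to 172 CPM in the positive sorts, so that every positive library lay above every negative one. Hspd1 was the 1 member of 10 whose sorts did not overlap, a pattern seen in the higher direction in 4.14% and in the lower direction in 4.67% of all genes. Its log2 fold change was 0.36 ± 0.08 (adjusted p = 0.00839). Hspe1 (chr1:55088132-55091307, plus strand) encodes HSP10, the lid of that barrel. Hspe1 ranged from 51.6 over 82.4 to 93.5 CPM in the negative and from 78.3 over 92.8 to 109 CPM in the positive sorts, higher in 6 of 6 mice, with a log2 fold change of 0.33 ± 0.10 (adjusted p = 0.0318). The annotated genes overlap by 112 bases on opposite strands, and the strand setting of the counting is not given in the sources used here, so reads from the overlap cannot be assigned. Hspd1 lost its call with library size alone (adjusted p = 0.0789) and in male mice alone (0.0562). Hspe1 lost its call in both (0.214 and 0.234), without the block (0.197), and without mouse 2 (0.0925), mouse 3 (0.0506), mouse 5 (0.0699) or mouse 6 (0.0929).

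In all, 7 of the 10 members moved in 1 direction in every mouse and passed the test, 4 lower, where 10.8% of all genes did so, and 3 higher, where 10.9% did. The mean log2 difference over the 5 inducible genes was negative in each mouse, at -0.72, -0.39, -0.58, -0.47, -0.64 and -0.46 for mice 1 to 6. Without Hspa1a and Hspa1b it was nearer 0 in each mouse and positive in mouse 4: over the other 3 inducible genes the mean was -0.30, -0.02, -0.31, 0.05, -0.04 and -0.15. Over the 5 constitutive genes the mean was 0.05, 0.19, 0.07, 0.10, 0.30 and 0.17. The positive sign in every mouse came with the mitochondrial Hspe1 and Hspd1, since over the 3 cytosolic genes it was -0.02, -0.09, -0.02, 0.05, 0.12 and 0.03. Of the inducible genes, Hsph1 and Hsp90aa1 did not pass.

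**Figure D2:**
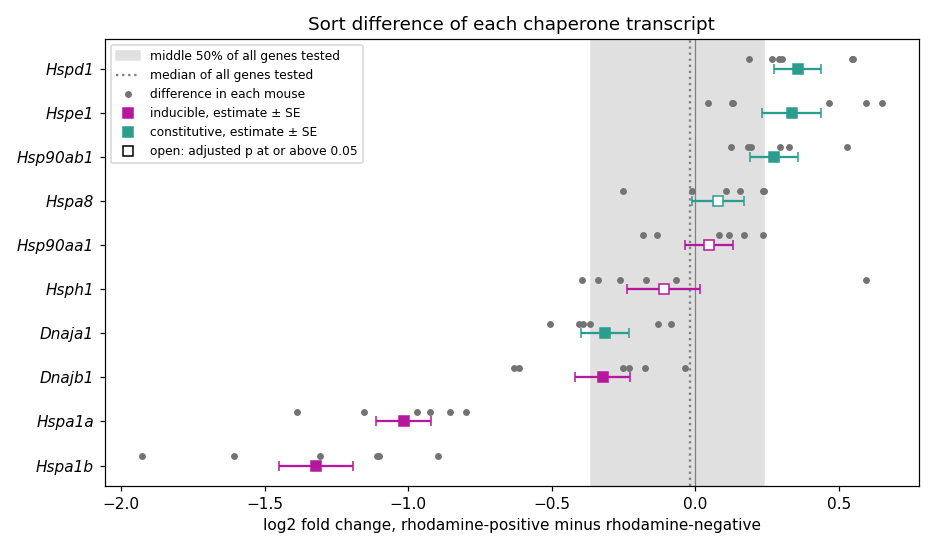
Log2 fold change (rhodamine-positive minus rhodamine-negative) of each chaperone gene with its SE, the 6 differences within mice as grey points, and the middle 50% of all genes tested as a band. Hspa1b at -1.32 and Hspa1a at -1.02 lie below the band, and Hspd1 at 0.36, Hspe1 at 0.33 and Hsp90ab1 at 0.27 lie above it.

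Ratios of counts within a library compare an inducible with a constitutive gene of 1 family, and no scaling between libraries enters them. Hspa1a plus Hspa1b amounted to 5.57% to 14.3% of the Hspa8 count in the negative sorts and to 2.16% to 6.76% in the positive sorts. The means were 10.6 ± 3.05% and 4.72 ± 1.81% (SD, n = 6). The ratio fell in 6 of 6 mice by a mean of 1.21 on the log2 scale (SE 0.157), and an exact two-sided sign-flip permutation test gave p = 0.0312, the smallest that 6 mice allow. Adjusted over the 3 ratios tested it was 0.0938. With 6 mice a ratio could come under 0.05 only if another ratio also reached the smallest p, and none did. An exact permutation of 6 against 6 libraries without the pairing gave an adjusted p of 0.0195. It ignores that both sorts came from the same mouse, and its smallest possible p is lower than that of the paired test.

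Hsp90aa1 amounted to 21.8 ± 2.88% of the Hsp90ab1 count in the negative and 18.6 ± 1.11% in the positive sorts. That ratio was lower in 5 of 6 mice, with mouse 2 the exception, by a mean log2 difference of -0.23 (SE 0.0868, exact sign-flip p = 0.0938, adjusted 0.141). Dnajb1 amounted to 69.0 ± 8.34% of Dnaja1 in the negative and 68.7 ± 9.86% in the positive sorts, with a mean log2 difference of -0.01 (SE 0.0878, exact sign-flip p = 0.969, adjusted 0.969). Single mice ranged from -0.22 to 0.37, with mice 4 and 5 higher and the others lower.

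**Figure D3:**
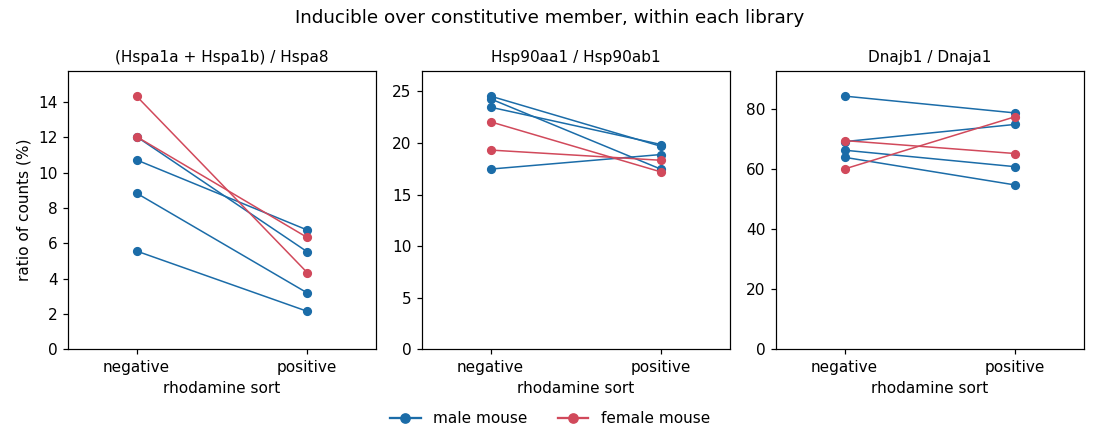
Count of the inducible gene as a percent of the constitutive gene of its family, in the rhodamine-negative and rhodamine-positive sort of each mouse. The HSP70 ratio falls along all 6 lines from a mean of 10.6% to 4.72%, the HSP90 ratio along 5 lines, and the J protein ratio shows no common direction.

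The sort difference was also compared between the sexes, by the sort-by-sex term of the same edgeR fit with 4 male and 2 female mice. At an adjusted p of 0.05 it was passed by 0 of 10 members and by 0 of 15014 genes. At an unadjusted p of 0.05 it was passed by 0 of 10 members, also with DESeq2 and limma-voom, and by 7.73% of all genes. Without mouse 2 it was 1 of 10 at the unadjusted threshold. Leaving out mouse 5 or mouse 6 left 1 female, which is then assumed to vary like the males, and gave 0 and 1 of 10. The number of females limits what this comparison can show.

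Other genes of the chaperone network were counted from 7 lists, also chosen with earlier results of these data known. They hold 75 genes, of which 69 were tested. Of these 2 fell and 23 rose, where 13.2% of all genes fell and 13.0% rose, with a median log2 fold change of 0.17. With library size alone 5 fell and 4 rose, without the block 1 fell and 14 rose, without mouse 3 it was 0 and 10, and without mouse 6 it was 1 and 12. Among 25 HSP70 and HSP90 co-chaperones 8 rose and 0 fell. They include Hspbp1, an exchange factor of HSP70, at 0.62 ± 0.08 (SE, adjusted p = 0.000394), and St13, which encodes the HSP70-interacting protein HIP, at 0.55 ± 0.08 (adjusted p = 0.000514). Both lay higher in 6 of 6 mice without overlap of the sorts and remained called with library size alone.

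Of all genes tested, 13.0% rose and 13.2% fell. Of the 8 subunits of TRiC/CCT, the cytosolic chaperonin that folds actin and tubulin, 7 rose and 0 fell, with a median of 0.29. Cct7 was at 0.37 ± 0.08 (adjusted p = 0.00615). Of 12 further mitochondrial chaperone genes 6 rose and 0 fell, with a median of 0.28. Among them were Hspa9, the mitochondrial HSP70, at 0.49 ± 0.09 (adjusted p = 0.00186), and Trap1, the mitochondrial HSP90, at 0.47 ± 0.09 (adjusted p = 0.00277). Hspbp1, St13, Hspa9 and Trap1 were the 4 genes that rose with library size alone, and Cct7 was then at an adjusted p of 0.0650.

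The genes closest to HSF1 showed no common direction. Hsf1 itself had 43.5 ± 6.03 CPM (SD, n = 6) in the negative and 39.8 ± 2.82 CPM in the positive sorts, a log2 difference of -0.12 (adjusted p = 0.447). Hsf2, a second heat shock factor, was low, at 5.66 ± 1.47 and 4.21 ± 1.59 CPM, with a log2 difference of -0.46 (adjusted p = 0.220). In that list of 5 tested genes 2 rose and 1 fell, where 13.0% of all genes rose and 13.2% fell. Hsbp1, which encodes an HSF1-binding protein, rose by 0.49, and Hikeshi, the nuclear import carrier of HSP70, by 0.36. Dedd2 fell by 0.51. These 3 calls were lost without the block (adjusted p = 0.0596, 0.0925 and 0.0676). In male mice alone both Hsbp1 and Hikeshi were at 0.129, and with library size alone they were at 0.0616 and 0.124. Hsbp1 also lost its call without mouse 6 (0.0522), Hikeshi without mouse 3 (0.0502) or mouse 6 (0.0534), and Dedd2 without mouse 3 (0.0503).

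Of 10 other J protein genes 1 fell, Dnajb6, by 0.26 on the log2 scale (adjusted p = 0.0339), and 0 rose. Over all genes tested, 13.2% fell and 13.0% rose. Dnajb6 did not pass without mouse 1 (adjusted p = 0.0981), mouse 3 (0.0983) or mouse 6 (0.0879), in male mice alone (0.0964) or with no filter on low counts (0.152). Among 6 other cytosolic HSP70 and HSP110 genes and 3 small heat shock protein genes 0 passed, where 26.2% of all genes passed. Hspb1, the small heat shock protein HSP27, had 9.78 ± 4.10 and 8.11 ± 4.00 CPM.

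**Figure D4:**
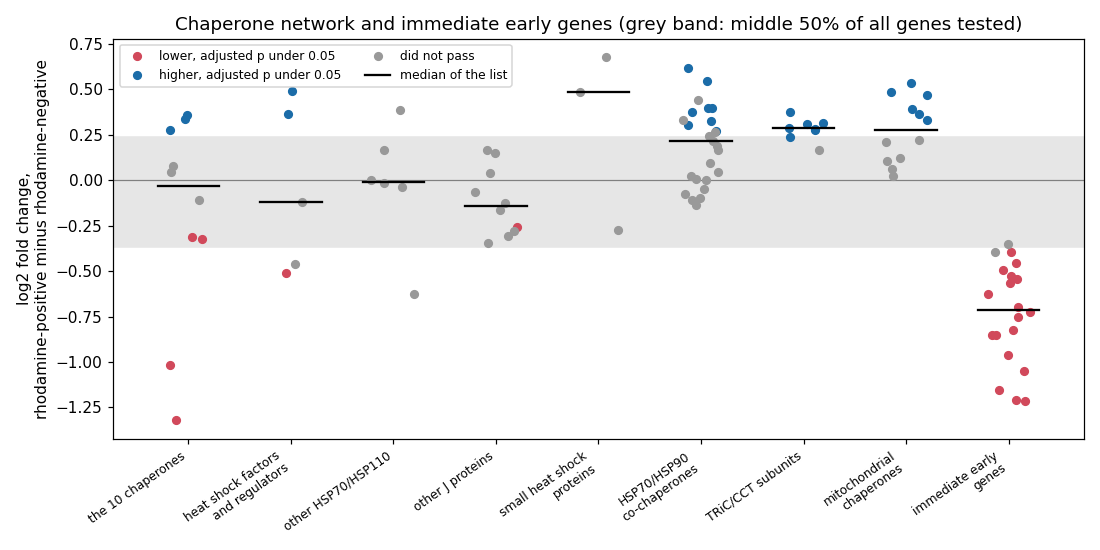
Log2 fold change (rhodamine-positive minus rhodamine-negative) of each tested gene of the chaperone lists and of the immediate early list, coloured by its call, with list medians as bars and the middle 50% of all genes tested as a band. TRiC/CCT subunits (median 0.29) and mitochondrial chaperones (0.28) sit high, and immediate early genes (-0.71) sit low.

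Immediate early genes also fell in the rhodamine-positive sorts, and their list was chosen with earlier results of these data known. Of 20 such genes, which cells switch on within minutes of a stimulus such as tissue dissociation, 18 fell and 0 rose. Of all genes tested, 13.2% fell and 13.0% rose. The median log2 fold change of the 20 immediate early genes was -0.71. The summed level of the list was 16231 to 22607 CPM in the negative sorts and 9559 to 13843 CPM in the positive sorts, without overlap. Btg2, an antiproliferative gene, was at -1.22 ± 0.09 (SE, adjusted p = 4.15e-06), and Junb, an AP-1 subunit, at -0.85 ± 0.11 (adjusted p = 0.000227). Their part in the HSP70 result was not tested.

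Cell type markers moved with the sorts as well, where 13.2% of all genes fell and 13.0% rose. Of 9 macrophage markers 5 rose, among them Cd68 at 0.87 and Adgre1 (F4/80) at 0.81, and Ptprc (CD45) fell by 0.56. Their summed level was 5752 to 10514 CPM in the negative and 11585 to 13269.5 CPM in the positive sorts. Of 10 dendritic cell markers 8 fell and 0 rose, from a summed 830 to 1704 CPM to 414 to 690 CPM, with Cd209a at -3.40 and Flt3 at -2.36. Siglech did not pass and held much of the positive sum, at a mean of 354 CPM in the negative and 301 CPM in the positive sorts. Of 7 monocyte markers 3 fell and 0 rose. Their summed level was 451 to 1233 CPM in the negative and 282 to 800 CPM in the positive sorts, with overlap. Fn1 did not pass and held much of that sum, at means of 327 CPM in the negative and 388 CPM in the positive sorts. Basophil and mast cell markers fell in 3 of 3 tested, T and NK cell markers in 1 of 1 tested, B and plasma cell markers in 2 of 5, and glioma and oligodendrocyte markers in 4 of 9. Endothelial markers passed in 0 of 4. Neutrophil markers stayed under the filter, at 0.602 to 7.34 CPM summed in the negative and 0 to 3.65 CPM in the positive sorts. No listed marker was at 0 in all libraries. The part of these cells in the chaperone differences was not tested.

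The 5 genes most like the inducible chaperones were found by Pearson r over the 12 libraries, between log2 CPM and the mean centred log2 CPM of the 5 inducible genes, among 8659 genes. They were Safb2 (r = 0.914), a nuclear matrix protein that binds RNA, Ccnl2 (0.911), a cyclin linked to splicing, Lmbr1l (0.904), Zfp408 (0.902) and Ptpre (0.899), a tyrosine phosphatase. The 12 libraries share the sort and the mice, so these values describe the pattern only.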

How the data were processed

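Polyadenylated RNA of 12 sorted samples was sequenced on an Illumina HiSeq. The authors deposited raw counts per gene and a log2 table of normalized values for 10605 genes, which holds all 10 members. The submitters' processing notes name build mm10, HISAT2 2.1.0, limma, bcl2fastq 2.17, edgeR, featureCounts 1.4.4 and cutadapt, and tool roles and strand setting are not given in the sources used here. The 12 deposited count files equal the table.

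The members and lists were chosen with earlier results of these data known. Of 54532 genes, 15014 passed filterByExpr (minimum count 10, minimum total 15) and held 99.8% of counts. Tests used edgeR 4.0.16 in R 4.3.3 (TMM, mouse as block, threshold 0.05), with SE as the absolute log2 fold change over the root of F, log2 CPM with a prior count of 2, and ratios of counts with 0.5 added. The whole table, not the members alone, was adjusted by Benjamini-Hochberg. Named genes were the members, Hsf1, Hsf2, up to 4 genes of smallest p per list and the 5 most alike, of mean log2 CPM at least 3. Other genes named were chosen after their values were seen. Positions are from GENCODE vM21 (GRCm38), coding identity from alignment with Biopython 1.88.

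The series description pairs the sorts by animal. Within mice 1 to 6, the deviations of both libraries from their sort's mean correlated at r = 0.226, 0.207, 0.289, 0.0775, 0.302 and 0.450, and mouse 4 lay under the highest correlation with another mouse (0.187). No library was a copy: between libraries of a sort, chi-square per degree of freedom was at least 17.5. On simulated counts over 14642 genes, the test recovered 23% of 100 genes changed by 0.5 and 78% of 100 changed by 1 (log2), with 4 false of 105 calls. The changed genes were drawn above a floor of mean count and were far fewer than the 3941 genes called in the data. These shares therefore do not give the recovery in the data. Alternatives were other scalings and filters, DESeq2 1.42.0, limma-voom (limma 3.58.1), limma on the deposited log2 values, no block, the male mice, and fits without each mouse in turn.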

Additional observations from a re-analysis of the deposited data

Results flagged for a closer look

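Among 33 groups of 6 values checked for a sample far from the others (members' levels per sort, sort differences and ratios), 2 stood out, both of Hsph1, and chance flags about 1 in 20. The rhodamine-positive library of mouse 1 was lowest, at 26.7 CPM against 39.7 to 44.7 CPM in the other 5, and its gap on the log2 scale took a share of 0.768 of the whole range. The sort difference of mouse 4 was highest, at 0.59 on the log2 scale against -0.40 to -0.07 in the other 5, with a share of 0.669.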

How the results depend on the processing

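Hspa1a and Hspa1b kept direction and call in 15 of 15 alternatives. Among the other called members the call was lost in 8 of 15 for Hsp90ab1, 7 for Hspe1, 3 for Dnajb1, and 2 each for Dnaja1 and Hspd1. The cause was not tested. Some of these settings held fewer mice, and others held all 6. With library size alone 4 members were called (0 higher), 3142 genes were lower and 852 higher over the table, and 9 other chaperone genes were called (5 lower, 4 higher). Hspa8 then reversed to -0.0807 and Hsp90aa1 to -0.11. With no replicate block 4 members were called (1 higher), 1270 genes were higher over the table, and 15 other chaperone genes were called (1 lower, 14 higher). The HSP70 ratio (-1.21) then had an adjusted p of 0.0195 by exact permutation, which ignores the pairing and allows a smaller p. In male mice alone 4 members were called (0 higher), 2227 genes over the table (1222 lower, 1005 higher) and 7 other chaperone genes (1 lower, 6 higher), Hsp90aa1 reversed to -0.00826, and Hspa4l to 0.0241. With no filter 1 other chaperone gene was lower. Leaving out 1 mouse at a time gave 3 to 6 members called (2 to 4 lower, 1 to 2 higher), 2678 to 3600 genes over the table (1421 to 1820 lower, 1257 to 1780 higher), and 10 to 23 other chaperone genes (0 to 2 lower, 10 to 21 higher). The Dnajb1 over Dnaja1 ratio then ranged from -0.0851 to 0.0331 and reversed without mice 1, 2, 3 or 6 (0.0131, 0.00807, 0.0331 and 0.00672). Hspa4l, at -0.135 to 0.0176, reversed without mouse 3 (0.0110) or mouse 5. DESeq2, limma-voom, DESeq2 size factors and a CPM filter changed no member's call. The lowest count of a member in a library was 158, and whether depth limited the members was not tested.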
